A study of Rattus norvegicus with 20 samples.

Results

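Cultured epithelial cells of the rat bladder (dome) were compared with cultured whisker follicle cells before either was transplanted into skin. Both came from Sprague-Dawley rats of the EGFP line SDTgN (act-EGFP)obsCZ-004, in which all cells carry a green fluorescent protein under an actin promoter. The study asked how follicle cells and cells of other epithelia differ before and after they are placed in skin, and the comparison described here gives the distance between 2 of the cultures at the start. The members are the 4 samples that the labels place in those 2 tissues before transplantation, out of 20 in the series. The bladder samples were a bulk culture from EGFP rats at PN201 (postnatal day). The whisker samples were 1 clone, clone 7, from EGFP rats at PN57. Both were grown on irradiated mouse 3T3-J2 feeder cells in the same medium and sorted for EGFP before RNA was extracted. Tissue, donor age and the choice of a bulk culture or a clone changed together between the groups and cannot be told apart. The study's methods let the control whisker cells run to higher passages than the other cultures, so passage may differ between the groups as well, and the passage of these samples is not given in the sources used here. Nothing in the labels says that the 2 samples of a group came from separate animals, so the spread between samples may be technical. The standard errors and p values rest on such spread pooled over all groups of the series, in a model of all 20 samples. The bladder samples differed from each other more than those of most groups. The pooled values thus do not describe the spread of the bladder samples alone and may understate it.

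The bladder is lined by urothelium, a transitional epithelium that stretches and keeps urine out by means of uroplakin plaques and tight junctions, and whose cells hold simple epithelial keratins. The whisker follicle is a skin appendage whose outer sheath is a stratified keratinocyte layer joined by desmosomes, anchored by hemidesmosomes and able to form a cornified barrier. Wnt, Hedgehog, BMP and ectodysplasin signals are known to shape the follicle.

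The 4 samples held 26884170 and 22702651 reads (bladder) and 24727834 and 21678751 reads (whisker) counted on genes. At this depth 3 counts, taken as the limit of counting, lay between 0.112 and 0.141 CPM, that is, counts scaled to a common library size. This limit covers counting error only. Levels printed below it rest on fewer than 3 counts in that sample, and the size of a fold change against them is uncertain. The bladder samples lay 0.45 apart and the whisker samples 0.339 apart as a root mean square over genes on the log2 CPM scale, and a bladder and a whisker sample lay between 1.72 and 1.81 apart. The distance between tissues was thus larger than that between samples of either tissue. The bladder samples differed at least 2-fold in 355 of 11936 genes with a mean of 1 CPM or more (2.97%), and the whisker samples in 64 of 11418 (0.561%). Of those 355 genes, 244 were also called between the tissues.

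Of 13302 genes tested with limma voom, 4250 (32.0%) were called between the tissues, that is, they differed at least 2-fold with a Benjamini-Hochberg adjusted p below 0.05. In bladder cells 2422 genes (18.2%) were higher and 1828 (13.7%) were lower. The median log2 fold change was 2.4 among the higher genes and fell by 1.74 among the lower ones, against 0.018 over all genes, and the median standard error (SE) over all genes was 0.131. At least 32-fold differences were found in 417 genes higher and 154 genes lower in bladder cells. The genes higher in bladder cells took 19.3% and 17.6% of all gene counts in the bladder samples and 4.17% and 4.2% in the whisker samples. The genes lower in bladder cells took 6.06% and 6.39% in the bladder samples and 22.1% and 22% in the whisker samples. No read was counted in either whisker sample for 189 of the higher genes, and none in either bladder sample for 37 of the lower genes. In bulk samples fewer cells of a type and less RNA per cell cannot be told apart.

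**Figure D1:**
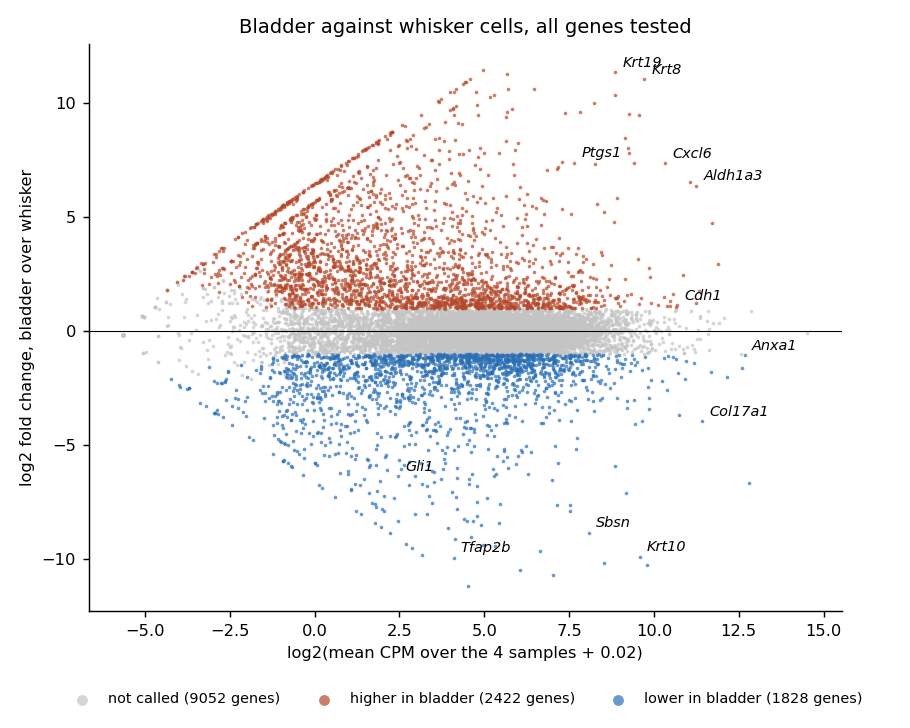
Each point is 1 of the 13302 genes tested, with the mean level of the 4 samples as log2(CPM + 0.02) on the x axis and the log2 fold change of bladder over whisker cells on the y axis. Red points are the 2422 genes called higher in bladder cells, blue points the 1828 called lower and grey points the genes not called. Named genes such as Krt8 and Krt10 lie at the far ends.

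Gene symbols could be paired with 2311 of the identifiers. These symbols come from tables of genes that had been found to differ in some comparison of the series. The tables were in part cut short. In the lists below, each measured member not called has a symbol starting with A to F. Listed genes with symbols after F were thus measured only where called, and only the direction of their call was open. Called genes were more frequent among genes with a symbol, of which 879 (38.0%) were higher and 697 (30.2%) lower in bladder cells. The counts in gene lists below are to be read against these shares, which do not correct for the cut. These shares are over all 2311 genes with a symbol, whereas the lists drew on 1913 of them, whose shares are not given here. The median log2 fold change was 0.324 over the 1913 genes used for the lists and 0.262 over the 2311. Many genes known for these tissues have no symbol here, and some of the most abundant called genes are among them. The gene ENSRNOG00000008057 was counted at 6428 and 6486 CPM in the bladder samples and at 244 and 233 CPM in the whisker samples. The gene ENSRNOG00000050420 was counted at 133 and 142 CPM in the bladder samples and 14318 and 13667 CPM in the whisker samples. These were chosen for their abundance after the values were seen.

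The simple epithelial keratins led the genes higher in bladder cells. Krt8 (ENSRNOG00000009779) was measured at 1656 and 1700.1 CPM in the bladder samples and 0.832 and 0.703 CPM in the whisker samples. The log2 fold change of Krt8 was 11.05 ± 0.42 (SE from spread pooled over all groups, n = 2 and 2, adjusted p = 1.5e-12 by limma, as for every adjusted p below). Its filament partner Krt18 (ENSRNOG00000047393) stood at 379 and 290.0 CPM against 0.333 and 0.515 CPM, with a log2 fold change of 9.58 ± 0.48. Krt19 (ENSRNOG00000014233), the small keratin of simple and transitional epithelia, had the largest rise among genes with at least 20 CPM in both bladder samples and at least 3 counts in whisker cells. Its level was 857 and 987 CPM in the bladder samples and 0.374 and 0.281 CPM in the whisker samples, a log2 fold change of 11.37 ± 0.59. All 3 were high in both bladder samples and below 1 CPM, though above the limit of counting, in both whisker samples, with no overlap. Krt8 had 20 and 15 counts in the whisker samples. Reads that match several places were not counted, so levels of keratins with near-identical copies are uncertain.

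The same leading group held Padi1, an enzyme that turns arginine into citrulline in proteins, at 476 and 427 CPM against 0.582 and 0.515 CPM (9.62 ± 0.31 on the log2 scale, adjusted p = 1.7e-13). Fabp4, a fatty acid binding protein known from bladder urothelium and fat, was at 54.5 and 101 CPM in the bladder samples. It had 3 counts in the whisker samples together, a ratio of 1154 (95% exact interval 395 to 5599). This interval, and those of the other ratios to so few counts, covers counting error only and not the spread between samples. Ctse, an intracellular aspartic protease, was at 83.4 and 60.5 CPM in the bladder samples, also with 3 counts in whisker cells and a ratio of 1101 (95% exact interval 376 to 5342). The chloride channel regulator Clca4l differed most between the bladder samples among these genes, at 1415 and 441 CPM in bladder samples 1 and 2 and 0.499 and 0.656 CPM in the whisker samples. Its log2 fold change was 10.38 ± 1.26, and 9.54 without bladder sample 1 and 11.23 without bladder sample 2. Tbc1d9, Tspan1 and Calcb completed the leading 10, with bladder levels between 69.2 and 183 CPM and whisker levels between 0.0416 and 0.234 CPM.

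Among genes with at least 20 CPM in both whisker samples and at least 3 counts in bladder cells, those lowest in bladder cells were led by Il36rn, an antagonist of the interleukin 36 receptor. It was measured at 0.112 and 0.0431 CPM in the bladder samples and 123 and 141 CPM in the whisker samples, a log2 fold change of -10.46 ± 0.54 (adjusted p = 5.75e-11). Krt10 (ENSRNOG00000030170), the keratin of epidermal cells that have left the basal layer, was at 1.57 and 1.64 CPM against 1716 and 1351 CPM, a log2 fold change of -9.88 ± 0.30 (adjusted p = 9.35e-14). Dmkn and Sbsn, secreted proteins of the upper epidermis encoded near each other, differed in the same direction. Dmkn was at 0.299 and 0.172 CPM in the bladder samples and 213 and 188 CPM in the whisker samples (-9.64 ± 0.54 on the log2 scale). For Sbsn the levels were 0.859 and 1.64 CPM and 567 and 515 CPM (-8.83 ± 0.40). The desmosomal cadherin Dsg1 was at 0.112 and 0.0431 CPM against 58.3 and 38.8 CPM (-9.00 ± 0.93, adjusted p = 2.54e-07). Clip4, Fads2l1, Cbs, Wt1 and Slc6a4 were the others of the leading 10, at 0.388 CPM or less in each bladder sample and between 28.7 and 87.2 CPM in the whisker samples.

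**Figure D2:**
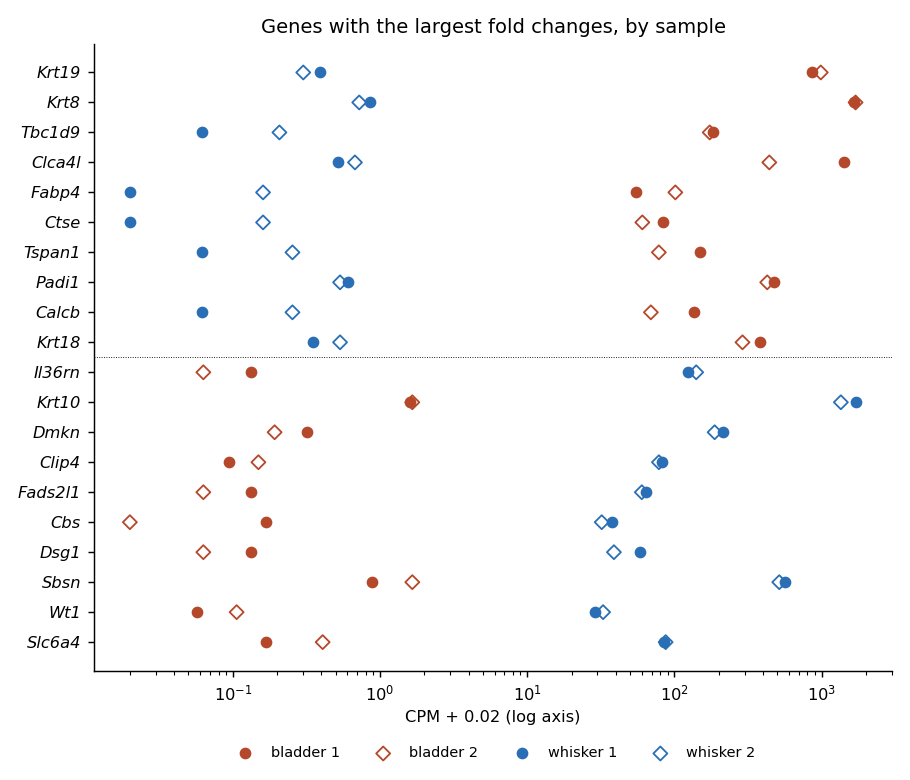
Levels by sample of the 10 genes highest and the 10 lowest in bladder cells relative to whisker cells, among those with at least 3 counts in the lower tissue, as CPM + 0.02 on a log axis, above and below the dotted line. Filled circles are sample 1 and open diamonds sample 2, red for bladder and blue for whisker. The 2 tissues do not overlap for any of the 20 genes, and Clca4l and Cbs show the difference between samples of a tissue.

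The promoter windows of 4 of these genes, and that of the uroplakin gene Upk1b, are shown because their genes differed so far between the tissues. Each holds 250 bases before and 50 bases after the RefSeq start site of the GRCr8 rat assembly, matched by symbol and read 5′ to 3′ on the gene's own strand. Capitals mark TATAAA, the AP-1 motif TGANTCA or the Sp1 motif GGGCGG, searched on both strands.
Krt8, chr7:135010290-135010589, minus strand: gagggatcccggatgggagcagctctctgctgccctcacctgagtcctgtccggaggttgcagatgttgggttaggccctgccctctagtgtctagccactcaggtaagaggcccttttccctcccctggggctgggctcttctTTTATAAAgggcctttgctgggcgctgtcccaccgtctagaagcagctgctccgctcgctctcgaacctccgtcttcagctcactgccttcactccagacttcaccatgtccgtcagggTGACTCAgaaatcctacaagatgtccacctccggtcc
Krt18, chr7:135035918-135036217, plus strand: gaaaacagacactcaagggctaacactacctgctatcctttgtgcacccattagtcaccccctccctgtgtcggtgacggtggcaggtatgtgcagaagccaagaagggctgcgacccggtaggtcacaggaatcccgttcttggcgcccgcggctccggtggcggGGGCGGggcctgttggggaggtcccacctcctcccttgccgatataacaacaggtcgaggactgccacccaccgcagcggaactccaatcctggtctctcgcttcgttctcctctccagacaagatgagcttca
Upk1b, chr11:75459131-75459430, plus strand: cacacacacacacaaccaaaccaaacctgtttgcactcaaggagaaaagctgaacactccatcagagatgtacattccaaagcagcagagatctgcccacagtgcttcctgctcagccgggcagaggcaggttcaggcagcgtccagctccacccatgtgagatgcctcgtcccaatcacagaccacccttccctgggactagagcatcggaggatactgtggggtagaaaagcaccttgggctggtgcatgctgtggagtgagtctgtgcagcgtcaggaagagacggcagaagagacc
Krt10, chr10:84839111-84839410, minus strand: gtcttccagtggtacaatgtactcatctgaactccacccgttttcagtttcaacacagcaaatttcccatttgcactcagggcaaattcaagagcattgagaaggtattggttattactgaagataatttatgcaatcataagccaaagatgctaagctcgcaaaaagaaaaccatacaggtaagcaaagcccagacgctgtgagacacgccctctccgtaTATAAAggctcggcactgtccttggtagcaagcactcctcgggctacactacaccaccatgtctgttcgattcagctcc
Dmkn, chr1:95141370-95141669, plus strand: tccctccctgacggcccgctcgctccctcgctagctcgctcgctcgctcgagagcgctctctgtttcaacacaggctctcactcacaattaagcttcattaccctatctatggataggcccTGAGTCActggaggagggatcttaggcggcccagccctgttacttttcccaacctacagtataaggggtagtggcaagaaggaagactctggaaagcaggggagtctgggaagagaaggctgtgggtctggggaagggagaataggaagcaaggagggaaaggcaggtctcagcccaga
The Krt8 and Krt18 windows lie 25328 bases apart on opposite strands. Krt8 held TATAAA on both strands at 1 overlapping place and TGANTCA once, Krt10 held TATAAA once, Dmkn held TGANTCA once, Krt18 held GGGCGG once and Upk1b held none of the 3. Over 24206 promoters with one entry per symbol, TATAAA was found in 14.3%, TGANTCA in 7.33% and GGGCGG in 35.9%. Among the 512 matched promoters of genes higher in bladder cells these shares were 9.38%, 7.23% and 57.4%, among the 410 of genes lower in bladder cells 8.05%, 6.83% and 64.4%, and among the 431 of genes not called 7.66%, 6.5% and 65.9%. The median GC content was 60.3%, 60.7% and 60.7% in these sets in the same order, against 52.7% over all promoters. A match is a description of the letters and not a binding site.

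Lists of marker genes were set beside the tissue labels. Of 30 genes listed for urothelial differentiation 17 could be measured, and 14 were higher in bladder cells, 0 lower and 3 not called, with a median log2 fold change of 5.4. The 3 not called have symbols starting with C, and members with symbols after F were measured only where called. The count was thus in part fixed in advance and is no check of the labels, although the direction of the calls was open. Upk1b, a tetraspanin of the uroplakin plaque, was at 167 and 191 CPM in the bladder samples and 4.12 and 4.31 CPM in the whisker samples (5.40 ± 0.20, adjusted p = 1e-12). Upk3bl, a uroplakin-like protein, was at 16.7 and 28.1 CPM against 2.12 and 1.83 CPM (3.43 ± 0.34). Both measured uroplakin genes were thus detected in whisker cells at a low level. The surface protein Psca was at 25.9 and 57.1 CPM in bladder samples 1 and 2 and 0.166 and 0.141 CPM in the whisker samples, and its log2 fold change was 7.76 ± 1.17, and 8.35 without bladder sample 1.

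The transcription factors of the urothelial list were all higher in bladder cells, 4 of 4 measured. Foxa1, a forkhead factor that opens chromatin in endodermal epithelia, was at 128 and 74.3 CPM in the bladder samples with 5153 counts in all, against 1 count in whisker cells. The ratio was 4679 (95% exact interval 839 to 184850.0). Foxa1 was not confined to bladder cells, with means of 19.5 CPM in trachea, 3.60 CPM in vagina and 3.02 CPM in thymus cells before transplantation. It was still called higher in bladder cells than the mean of those cultures, by 4.03 ± 0.19 on the log2 scale. Vgll1, a TEAD cofactor, was at 23.8 and 15 CPM with 1 count in whisker cells, a ratio of 895 (95% exact interval 160.3 to 35399). The epithelial ETS factors Elf3 and Ehf were also present in whisker cells. Elf3 was at 548 and 448 CPM against 132 and 123 CPM (1.96 ± 0.10), and Ehf at 378 and 272 CPM against 85.1 and 72.4 CPM (2.03 ± 0.14). The 3 members not called were the claudins Cldn3 (-0.39 ± 0.13) and Cldn4 (0.90 ± 0.11) and the tetraspanin Cd9 (-0.69 ± 0.10). Cldn4 was at 1322 and 1104 CPM in the bladder samples and 654 and 645 CPM in the whisker samples, and its log2 fold change was 1.03 without bladder sample 2.

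Of 47 keratin and keratin-associated genes listed, 6 could be measured. The mucosal keratin Krt4 was higher in bladder cells, at 16.2 and 69.6 CPM in bladder samples 1 and 2 and 0.457 and 0.469 CPM in the whisker samples. Its log2 fold change was 6.08 ± 1.44 (adjusted p = 0.00131), and 7.17 without bladder sample 1 and 5.06 without bladder sample 2. Krtap3-2, a hair shaft keratin-associated protein, was higher in bladder cells too, although at a low level of 6.68 and 2.63 CPM against 3 counts in the whisker samples together. The ratio was 72.6 (95% exact interval 24.6 to 355). The basal keratins and the other hair keratins have no symbol here and were not analysed. Of the 38 hair follicle regulators listed, 11 were measured, with 2 higher and 6 lower in bladder cells. The 5 measured transcription factors of that list, Tfap2b, Dlx3, Tbx1, Barx2 and Bcl11b, were all lower in bladder cells. Cd200, a surface protein of follicle bulge cells, was at 77.3 and 52.8 CPM in the bladder samples and 16.4 and 17.3 CPM in the whisker samples (1.93 ± 0.15). Cd34, the other member higher in bladder cells and a marker of follicle and blood stem cells, was at 0.784 and 1.90 CPM and had 2 counts in whisker cells, a ratio of 29.5 (95% exact interval 7.85 to 249). In the ectodysplasin pathway the adaptor Edaradd was lower in bladder cells, at 10.2 and 10.5 CPM against 36.0 and 34.0 CPM (-1.76 ± 0.16). The ligand Eda and the receptors Edar and Eda2r were not called, with Eda at 2.84 and 2.5 CPM against 4.70 and 3.37 CPM, Edar at 1.08 and 0.560 CPM against 0.790 and 0.797 CPM and Eda2r at 17.1 and 7.33 CPM against 6.86 and 5.58 CPM. Eda2r was called without bladder sample 2, at 1.46.

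**Figure D3:**
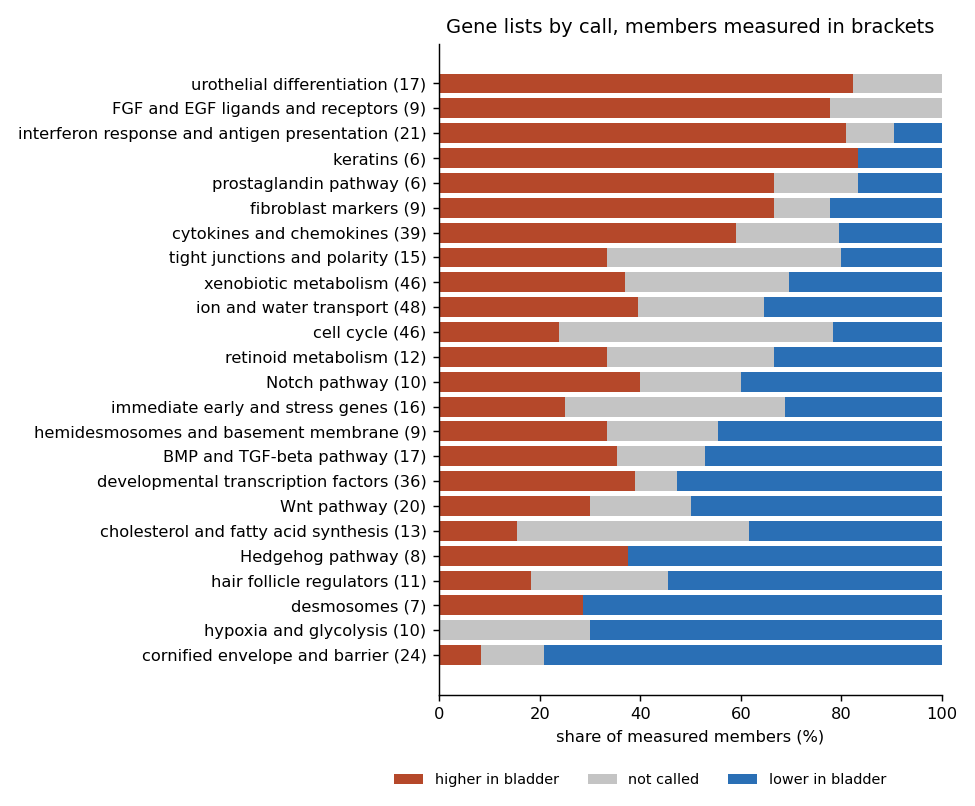
Share of the measured members of each gene list with at least 6 measured genes that was higher in bladder cells (red), not called (grey) or lower (blue), on an axis from 0 to 100%. The number of measured members stands in brackets. Members with symbols after F were measured only where called. Urothelial genes stand at the top, with 14 of 17 higher in bladder cells, and cornified envelope genes at the bottom, with 19 of 24 lower.

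Genes of the cornified envelope and the epidermal barrier were mostly lower in bladder cells, 19 of 24 measured, with 2 higher and 3 not called. Their median log2 fold change was -3.9, or -3.66 with genes at 0 counts set to the limit that 3 counts per library allow. Among the envelope proteins 10 of 11 were lower. Calml5, a calmodulin-like protein of differentiating keratinocytes, was at 0.0747 and 0.259 CPM in bladder samples 1 and 2 and 54.2 and 47.0 CPM in the whisker samples. Casp14, the caspase of cornification, was at 2.65 and 1.68 CPM against 112 and 87.4 CPM (-5.52 ± 0.27, adjusted p = 3.02e-11). Abca12, the lipid transporter of lamellar granules, was at 0.784 and 0.302 CPM against 50.7 and 41.9 CPM. Of the barrier lipid enzymes 6 of 9 were lower. The 2 members higher in bladder cells were Padi1, given above, and the lipoxygenase Alox15, at 2.28 and 1.64 CPM against 0.291 and 0.141 CPM (3.11 ± 0.54).

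Of 7 measured genes of desmosomes, the junctions that tie keratinocytes together, 5 were lower in bladder cells and 2 were higher. Dsc3 was at 89.7 and 106 CPM in the bladder samples and 1600.2 and 1410.0 CPM in the whisker samples (-3.95 ± 0.09, adjusted p = 6.1e-15). Dsg3 was at 143 and 160.0 CPM against 1328 and 1121 CPM (-3.01 ± 0.10). Dsc1 had 3 counts in the bladder samples together and 8.69 and 6.33 CPM in the whisker samples, a ratio of 126 (95% exact interval 42.9 to 615). Dsp, the plaque protein that links cadherins to keratin filaments, was abundant in both tissues, at 1319 and 1639 CPM against 5369 and 4832 CPM (-1.79 ± 0.13). In the other direction, Dsc2 was at 863 and 539.5 CPM in the bladder samples and 309 and 267 CPM in the whisker samples (1.25 ± 0.14), and fell short of 2-fold, at 0.91, without bladder sample 1. Dsg4, the other member higher in bladder cells, was at 0.747 and 0.474 CPM against 0.249 and 0.234 CPM (1.24 ± 0.53, adjusted p = 0.0471). That call was kept with edgeR (adjusted p = 0.0337) and lost with DESeq2 (0.0982), without a low-count filter (0.0723), with sample weights (0.156), in a fit of only the 4 samples (0.081), with the replicate block in 20 (0.051) and 4 samples (0.0841), and without bladder sample 1, whisker sample 1 or whisker sample 2 (adjusted p = 0.132 to 0.225).

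Of 9 measured genes that anchor cells to the basement membrane 3 were higher in bladder cells, 4 lower and 2 not called. Col17a1, the transmembrane collagen of hemidesmosomes, was at 236 and 483 CPM in the bladder samples and 5157 and 5133 CPM in the whisker samples (-3.93 ± 0.20, adjusted p = 4.33e-11). It was among the most abundant genes lower in bladder cells. Col7a1, the anchoring fibril collagen, was at 180.2 and 257 CPM against 1471 and 1799 CPM (-2.92 ± 0.19). The integrin subunit Itgb8, which activates latent TGF-β, was at 2.39 and 3.23 CPM against 42.4 and 41.0 CPM (-3.91 ± 0.25). Col4a1, a chain of the basement membrane network, was higher in bladder cells, at 74.1 and 69.4 CPM against 25.9 and 31.9 CPM (1.32 ± 0.14).

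Tight junction and polarity genes were higher in 5 cases, lower in 3 and not called in 7 of 15. Cldn7 was at 60.2 and 67.3 CPM in the bladder samples and 0.208 and 0.328 CPM in the whisker samples (7.82 ± 0.37, adjusted p = 2.21e-11). Cldn1, the claudin of the epidermal barrier, was at 111 and 50.0 CPM against 621 and 585 CPM (-3.01 ± 0.21). E-cadherin (Cdh1) and β-catenin (Ctnnb1), which form adherens junctions, were abundant in both tissues and about 2-fold higher in bladder cells. Cdh1 was at 2419.9 and 2125 CPM in the bladder samples and 1078 and 975 CPM in the whisker samples (1.15 ± 0.07), and Ctnnb1 at 1649 and 1401 CPM against 672 and 688 CPM (1.16 ± 0.08). The adhesion molecule Epcam was at 519 and 491 CPM against 228 and 229 CPM (1.14 ± 0.09). The annexins Anxa1 and Anxa8, which bind membranes in the presence of calcium, were the most abundant genes with a symbol that were lower in bladder cells. Anxa8 was at 1582 and 2061 CPM against 7479 and 6897 CPM (-1.99 ± 0.10), while Anxa1 was at 4508 and 4076 CPM against 8967 and 8651 CPM (-1.04 ± 0.10, and -0.97, short of 2-fold, without bladder sample 2).

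Of 36 measured transcription factors of development 14 were higher in bladder cells, 19 lower and 3 not called, with a median log2 fold change of -1.21. The Hox genes Hoxb3, Hoxb4 and Hoxa3, which set position along the body axis, were all higher in bladder cells. Their symbols come after F, so they were measured only because they were called, and only the direction was open. Hoxb3 was at 10.9 and 11.4 CPM with 1 count in whisker cells, a ratio of 505 (95% exact interval 90.2 to 19977). Hoxb4 was at 4.67 and 5.04 CPM and had 0 counts in whisker cells, and was thus at least 36.6-fold higher in bladder cells. Isl1 was called higher in bladder cells but had 3 counts in bladder cells and 0 in whisker cells, both within the limit of counting, and the call was lost with edgeR (adjusted p = 0.068), with DESeq2 and without any 1 of the 4 samples (adjusted p = 0.064 to 0.196).

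Whisker cells held factors that were low in bladder cells, some of them near the limit of counting. Tfap2b, an AP-2 factor of the neural crest and skin, had 1 count in the bladder samples together and 35.3 and 32.9 CPM in the whisker samples, a ratio of 1709 (95% exact interval 306 to 67552) of whisker over bladder. Wt1, best known from kidney and mesothelium, had 3 counts in the bladder samples against 28.7 and 32.8 CPM in the whisker samples, a ratio of 509.9 (95% exact interval 174 to 2476). The T-box factor Tbx1 was at 3.40 and 6.08 CPM in the bladder samples and 154 and 135 CPM in the whisker samples (-5.01 ± 0.24, adjusted p = 1.92e-11). Dlx3, a distal-less factor needed for hair formation, was at 0.261 and 0.345 CPM against 18.3 and 16.5 CPM (-5.77 ± 0.33), and Dlx5 at 0.112 and 0.259 CPM against 7.98 and 5.53 CPM (-5.16 ± 0.46). Bcl11a was at 0.971 and 0.474 CPM against 28.4 and 23.8 CPM (-5.19 ± 0.36).

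Of 20 measured Wnt pathway genes 6 were higher in bladder cells, 10 lower and 4 not called. Among the ligands, Wnt4 was at 111 and 152 CPM in the bladder samples and 57.6 and 51.6 CPM in the whisker samples (1.25 ± 0.13). Wnt3 had 3 counts in bladder cells and 1.29 and 0.984 CPM in whisker cells, a ratio of 19.1 (95% exact interval 6.18 to 95.6) of whisker over bladder. Both measured receptors, Lgr4 and Ror2, were lower in bladder cells, but their symbols come after F, where listed genes were measured only where called. The R-spondin receptor Lgr4 was at 25.2 and 21.8 CPM against 153 and 179 CPM (-2.81 ± 0.13, adjusted p = 2.19e-11). Of 7 measured inhibitors 3 were higher and 3 lower. Dkk3, a secreted protein of the Dickkopf family, was at 6.72 and 3.15 CPM in bladder samples 1 and 2 and had 1 count in whisker cells, a ratio of 229.7 (95% exact interval 40.9 to 9109). The atypical cadherin Celsr2, a planar polarity receptor, was at 40.1 and 41.0 CPM against 333 and 345 CPM (-3.06 ± 0.17).

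In the Hedgehog pathway both measured transcription factors, Gli1 and Gli2, were lower in bladder cells. Their symbols come after F, where listed genes were measured only where called. Gli1, which is also a target of the pathway, was at 0.0747 and 0.172 CPM in the bladder samples and 10.2 and 11.3 CPM in the whisker samples (-6.34 ± 0.49, adjusted p = 8.07e-09). Gli2 was at 10.4 and 9.66 CPM against 48.2 and 49.9 CPM (-2.29 ± 0.11). The coreceptor Boc and the ciliary proteins Evc and Evc2 were lower as well, while the ligand Dhh was higher, at 6.87 and 4.87 CPM against 2.25 and 2.67 CPM (1.25 ± 0.25, and 0.99, short of 2-fold, without bladder sample 1). In all, 3 of 8 measured genes were higher and 5 lower.

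Of 10 measured Notch pathway genes 4 were higher and 4 lower in bladder cells. The ligand Dll1 was at 3.14 and 6.38 CPM in the bladder samples and 54.8 and 60.3 CPM in the whisker samples (-3.71 ± 0.18), and the noncanonical ligand Dlk2 at 1.64 and 3.88 CPM against 89.7 and 96.4 CPM. The log2 fold change of Dlk2 was -5.23 ± 0.26, and -4.57 without bladder sample 1. The receptor-cleaving proteases Adam10 and Adam17 were both about 2-fold higher in bladder cells, Adam10 at 264 and 245 CPM against 124 and 118 CPM (1.08 ± 0.09) and Adam17 at 205 and 203 CPM against 102 and 90.4 CPM (1.09 ± 0.08).

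Of 17 measured BMP and TGF-β genes 6 were higher in bladder cells, 8 lower and 3 not called. Of 8 measured ligands 5 were higher in bladder cells and 2 lower, and of 3 measured extracellular inhibitors 0 were higher and 2 lower. Inhba, the activin subunit, was at 20.8 and 26.5 CPM in the bladder samples and 0.333 and 0.281 CPM in the whisker samples (6.15 ± 0.58, adjusted p = 9.1e-08). Gdf15, a stress-induced ligand, was at 47.8 and 23.8 CPM against 1.33 and 1.12 CPM (4.77 ± 0.53). Bmp4 was lower in bladder cells, at 0.747 and 1.21 CPM against 9.65 and 9.51 CPM (-3.33 ± 0.29), as was the BMP inhibitor Chrd at 0.523 and 0.345 CPM against 8.90 and 11.9 CPM (-4.51 ± 0.32). Tgfbi, a matrix protein induced by TGF-β, was at 8.51 and 15.8 CPM against 407 and 402 CPM (-5.14 ± 0.20, adjusted p = 1.51e-12).

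Ligands of the EGF receptor family were higher in bladder cells, 5 of 6 measured genes of that group, and the sixth, the receptor gene Erbb3, was not called. Areg was at 327 and 159 CPM in the bladder samples and 18.7 and 16.4 CPM in the whisker samples (3.69 ± 0.26, adjusted p = 3.14e-09), and the neuregulin Nrg1 at 175 and 190.2 CPM against 37.0 and 34.0 CPM (2.36 ± 0.12). The ETS factors Etv4 and Etv5, targets of FGF signalling, were higher too. Etv5 was at 37.5 and 34.3 CPM against 3.58 and 3.70 CPM (3.30 ± 0.15) and Etv4 at 93.2 and 86.7 CPM against 16.5 and 17.0 CPM (2.42 ± 0.10). Over both families 7 of 9 measured genes were higher and 0 lower. The FGF feedback phosphatase Dusp6 was not called, at 59.6 and 148 CPM in bladder samples 1 and 2 and 107 and 129.9 CPM in the whisker samples (-0.33 ± 0.26, and 0.34 without bladder sample 1).

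Chemokines were higher in bladder cells in 12 of 15 measured cases, with 0 lower and 3 not called. Cxcl6, which attracts neutrophils, was among the most abundant genes higher in bladder cells, at 3228 and 1851 CPM in the bladder samples and 14.8 and 14.8 CPM in the whisker samples (7.37 ± 0.22, adjusted p = 7.71e-14). Cxcl1 was at 289 and 359.8 CPM against 26.7 and 25.0 CPM (3.64 ± 0.15), Cxcl2 at 159 and 103 CPM against 1.87 and 1.27 CPM (6.35 ± 0.43), and Ccl20 at 43.0 and 26.2 CPM against 0.374 and 0.375 CPM (6.42 ± 0.64). Over all 39 measured cytokine and chemokine genes 23 were higher, 8 lower and 8 not called, with a median log2 fold change of 2.09, or 1.62 with genes at 0 counts set to their limit. Genes of the interleukin 1 family and its receptors were called in both directions. Il1r2, the decoy receptor, was at 1.16 and 0.905 CPM in the bladder samples and 83.4 and 76.1 CPM in the whisker samples (-6.25 ± 0.23, adjusted p = 8.98e-13). Il1f10 had 0 counts in bladder cells and was at least 120.0-fold lower there than in whisker cells, which held 14.1 and 14.9 CPM. The receptor chains Il1rl1, at 12 and 3.62 CPM against 2.20 and 3.28 CPM, and Il18rap, at 9.63 and 9.22 CPM against 0.333 and 0.0937 CPM, were higher in bladder cells. The log2 fold change of Il1rl1 was 1.35 ± 0.45, and 0.44 without bladder sample 1 and 2.16 without bladder sample 2.

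Interferon response and antigen presentation genes were higher in 17 of 21 measured cases and lower in 2, with a median log2 fold change of 2.83. The members not called were Apol9a and Dtx3l, and those with symbols after F were measured only where called. This share and this median thus favour called genes, while the direction of the calls was open. Slfn5 was at 121 and 118 CPM in the bladder samples and 0.457 and 0.469 CPM in the whisker samples (7.95 ± 0.36, adjusted p = 1.27e-11). The invariant chain Cd74 was at 50.0 and 24.9 CPM against 1.29 and 1.08 CPM (4.89 ± 0.56), and Ciita, the regulator of class II genes, at 11.5 and 11.3 CPM against 1.25 and 2.06 CPM (2.83 ± 0.24). Irf8 was at 46.1 and 42.2 CPM against 15.1 and 14.9 CPM (1.56 ± 0.09). The 2 members lower in bladder cells were Mr1, which presents vitamin metabolites to T cells, at 5.97 and 4.40 CPM against 31.0 and 33.1 CPM (-2.62 ± 0.13), and Dhx58 at 2.87 and 1.81 CPM against 8.11 and 8.11 CPM (-1.80 ± 0.19). Cd74, Ciita and Irf8 are also expressed by leukocytes, whose markers are given with the other cell types.

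Of 6 measured prostaglandin genes 4 were higher in bladder cells, 1 was lower and 1, Abcc4, was not called. The others have symbols after F and were measured only where called, so only the direction of their call was open. Both cyclooxygenases, which start prostaglandin synthesis, were higher. Ptgs1 was at 356 and 440.5 CPM in the bladder samples and 2.29 and 2.34 CPM in the whisker samples (7.41 ± 0.20, adjusted p = 3e-14), and Ptgs2 at 162 and 243 CPM against 3.66 and 3.14 CPM (5.86 ± 0.27). Ptges, the synthase of prostaglandin E2, differed less, at 23.4 and 20.3 CPM against 8.86 and 7.36 CPM (1.43 ± 0.15). The secreted phospholipase Pla2g2f had 0 counts in bladder cells and 5.07 and 5.25 CPM in whisker cells, at least 42.8-fold lower in bladder cells.

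The most abundant gene with a symbol that was higher in bladder cells was Aldh1a3, which makes retinoic acid from retinaldehyde. It was at 5529.5 and 4074 CPM in the bladder samples and 52.9 and 59.9 CPM in the whisker samples (6.40 ± 0.12, adjusted p = 1.03e-15). The sister enzyme Aldh1a1 differed in the opposite direction, at 1.08 and 1.81 CPM against 23.5 and 25.5 CPM (-4.13 ± 0.22), as did the retinol dehydrogenases Adh7, at 0.224 and 0.345 CPM against 7.19 and 7.59 CPM, and Sdr16c6, with 0 counts in bladder cells and 12.3 and 13.2 CPM in whisker cells (at least 106-fold lower). The retinoic acid binding protein Crabp2 was higher in bladder cells, at 263 and 269 CPM against 76.5 and 69.4 CPM (1.87 ± 0.12). In all, 4 of 12 retinoid genes were higher, 4 lower and 4 not called.

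Genes of xenobiotic metabolism were higher in 17, lower in 14 and not called in 15 of 46 measured cases, shares near those of all genes with a symbol. By role, 9 of 20 cytochrome P450 and aryl hydrocarbon receptor genes were lower and 4 higher, while 11 of 21 conjugation and reduction enzymes were higher and 4 lower. The glutathione transferase Gstt3 was at 114 and 86.4 CPM in the bladder samples and 0.249 and 0.328 CPM in the whisker samples (8.34 ± 0.58, adjusted p = 1.99e-09). The efflux pump Abcg2 was at 19.3 and 15.5 CPM against 0.998 and 1.08 CPM (4.04 ± 0.30). Among those lower, Cyp27a1, a sterol hydroxylase, was at 12.6 and 9.44 CPM against 89.1 and 80.4 CPM (-2.94 ± 0.19).

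Of 48 measured genes of ion and water transport 19 were higher in bladder cells, 17 lower and 12 not called. Ion channels were higher in 14 of 23 cases and lower in 4, and pumps were higher in 3 of 14 cases and lower in 9. Cftr, the chloride channel, was at 18.9 and 10.6 CPM in the bladder samples and 0.665 and 0.375 CPM in the whisker samples (4.76 ± 0.62). Clca1 had 0 counts in whisker cells and 31.9 and 39.4 CPM in bladder cells, at least 269-fold higher. Atp1b1, a β chain of the sodium pump, was higher in bladder cells, at 314 and 294 CPM against 48.9 and 51.1 CPM (2.60 ± 0.12, adjusted p = 1.02e-11). The vacuolar proton pump subunits Atp6v0a4 and Atp6v1c2 were both lower, with Atp6v0a4 at 1.19 and 1.21 CPM against 30.1 and 26.9 CPM (-4.55 ± 0.25). The carbonic anhydrase Car12 was at 154 and 167 CPM against 1672 and 1737 CPM (-3.41 ± 0.08, adjusted p = 7.79e-15).

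Of 46 measured cell cycle genes 11 were higher in bladder cells, 10 lower and 25 not called, with a median log2 fold change of 0.05. Most S phase and mitosis genes were not called, 10 of 15 and 13 of 20. Inhibitors of cyclin-dependent kinases were called in both directions. Cdkn2b was at 408 and 257 CPM in the bladder samples and 56.8 and 63.4 CPM in the whisker samples (2.43 ± 0.14, adjusted p = 2.91e-10) and Cdkn2a at 128 and 98.5 CPM against 34.3 and 35.5 CPM (1.69 ± 0.14). Cdkn1b was lower in bladder cells, at 43.4 and 41.6 CPM against 209 and 219 CPM (-2.33 ± 0.08), as was Cdkn1c at 7.06 and 8.28 CPM against 66.7 and 66.9 CPM (-3.13 ± 0.17). Cyclin D1 (Ccnd1) was at 1513 and 1181 CPM against 575 and 568 CPM (1.23 ± 0.09). The cytokinesis kinase Cit was at 13.8 and 25.7 CPM against 203 and 236 CPM (-3.56 ± 0.21).

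Genes of hypoxia and glycolysis were lower in 7 of 10 measured cases and higher in 0. Bnip3, a mitophagy receptor, was at 9.67 and 8.32 CPM in the bladder samples and 94.6 and 86.4 CPM in the whisker samples (-3.32 ± 0.16, adjusted p = 2.85e-11). Ddit4, an inhibitor of mTORC1, was at 123 and 128 CPM against 627 and 629.9 CPM (-2.33 ± 0.07), and Epas1, a hypoxia-inducible factor, at 39.7 and 30.9 CPM against 133 and 145 CPM (-1.98 ± 0.09). Of 13 measured genes of cholesterol and fatty acid synthesis 2 were higher, 5 lower and 6 not called. Dhcr7, the last enzyme of cholesterol synthesis, was at 72.6 and 70.2 CPM against 322 and 319.8 CPM (-2.17 ± 0.07). Of 16 immediate early and stress genes 4 were higher and 5 lower. Egr1 was at 75.2 and 206 CPM in bladder samples 1 and 2 and 726 and 674 CPM in the whisker samples. Its log2 fold change was -2.49 ± 0.27, and -1.76 without bladder sample 1 and -3.22 without bladder sample 2.

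Markers of other cell types moved with the comparison in some cases. Of 9 measured fibroblast markers 6 were higher in bladder cells, 2 lower and 1 not called. Their summed level was 545 and 463 CPM in the bladder samples and 1380 and 1390 CPM in the whisker samples. In whisker cells most of it was Col5a2, at 105 and 104 CPM against 1092 and 1062 CPM (-3.37 ± 0.09). Col1a1 was at 176 and 127 CPM in the bladder samples and 18.5 and 33.2 CPM in the whisker samples (2.60 ± 0.18), and Col3a1 at 65.1 and 56.9 CPM against 3.74 and 9.23 CPM (3.40 ± 0.28, and 2.72 without whisker sample 1 and 4.02 without whisker sample 2). The only smooth muscle marker measured, Acta2, was at 8.03 and 10.3 CPM against 0.416 and 0.562 CPM (4.17 ± 0.34). Of 4 leukocyte markers 3 were higher in bladder cells and 1 was not called, with sums of 35.7 and 29.4 CPM against 12.6 and 11 CPM. Among them Lcp1 was at 17.2 and 14.3 CPM against 0.166 and 0.0937 CPM, Cd53 at 3.02 and 1.29 CPM against 0.457 and 0.187 CPM, and Coro1a at 0.709 and 0.431 CPM with 0 counts in whisker cells (at least 4.3-fold higher). Of 2 endothelial markers Esam was higher and Egfl7 was not called, with sums of 8.18 and 5.99 CPM against 3.41 and 4.26 CPM. The part of such cells in the interferon, antigen presentation, chemokine and collagen results was not tested. The Y-linked gene Eif2s3y was detected in all 4 samples, at 125 and 93.6 CPM and 117 and 124 CPM.

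The levels of bladder and whisker cells were set beside those of trachea, vagina and thymus cells cultured before transplantation. Against the mean of those 3 tissues 2706 genes (20.3%) were called in bladder cells and 2855 (21.5%) in whisker cells. These comparisons share samples with each other and are given for single genes only. The log2 difference of Krt8 from that mean was 1.86 ± 0.10 (SE) in bladder cells and -9.20 ± 0.42 in whisker cells, with means of 1121 CPM in trachea, 243 CPM in vagina and 371 CPM in thymus. Krt18 was at 72.6, 7.32 and 2.86 CPM in those tissues, and its log2 difference from their mean was 4.85 ± 0.12 in bladder cells and -4.73 ± 0.49 in whisker cells. For Krt4 the log2 difference from the mean was -2.74 ± 0.32 in bladder cells and -8.82 ± 1.42 in whisker cells, with 379.7 CPM in trachea, 652 CPM in vagina and 43.4 CPM in thymus, where the level overlapped that of the bladder samples. Cdh6, a cadherin of kidney and other epithelia, had 0 counts in whisker cells and 49.3 and 38.9 CPM in the bladder samples (at least 333-fold higher), and was at 2.41 CPM in trachea, 0.0382 CPM in vagina and 0.0198 CPM in thymus.

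For some genes bladder cells were called against the other 3 cultures and whisker cells were not, a difference between calls that was not itself tested. Aldh1a3 stood at 69.2, 60.7 and 27.9 CPM in trachea, vagina and thymus cells, so that bladder cells were 6.60 ± 0.10 above their mean on the log2 scale while whisker cells were not called (0.20 ± 0.10). Cdh1 was higher in bladder cells by 1.12 ± 0.06 and was not called in whisker cells (-0.03 ± 0.06). Dsg3, at 695, 1416 and 724 CPM in those tissues, was lower in bladder cells (-2.56 ± 0.08) and not called in whisker cells (0.45 ± 0.08).

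For other genes whisker cells were called against those cultures and bladder cells were not. Those given here have symbols after F, where all listed genes with a symbol were called between bladder and whisker cells. That they stood apart in whisker cells was thus at least in part fixed by how they came to have a symbol. The genes of the preceding paragraph have symbols from A to F, so the examples were not drawn alike. Ptgs1, at 165, 318 and 181 CPM in trachea, vagina and thymus, was not called in bladder cells (0.90 ± 0.07) and was lower in whisker cells (-6.50 ± 0.20 on the log2 scale). Gstt3 was likewise not called in bladder cells (-0.32 ± 0.10) and was lower in whisker cells (-8.66 ± 0.57). Tbx1 (5.41 ± 0.18), Wt1 (7.61 ± 0.24), Lgr4 (2.72 ± 0.10) and Gli2 (2.31 ± 0.08) were higher in whisker cells than in the other cultures and were not called in bladder cells. Krt10 was called in both, and its log2 difference from the mean of those cultures was 8.45 ± 0.17 in whisker cells and -1.42 ± 0.33 in bladder cells. Vaginal cells held 57.7 CPM of it, trachea 1.08 CPM and thymus 1.35 CPM, and the bladder samples lay below vagina and within the range of the thymus samples. Chst11, a chondroitin sulfotransferase, did not differ past the threshold between bladder and whisker cells, at 31.0 and 28.9 CPM against 33.3 and 34.3 CPM (-0.17 ± 0.11, adjusted p = 0.187), and both were above the other cultures (2.45 ± 0.12 and 2.62 ± 0.12).

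**Figure D4:**
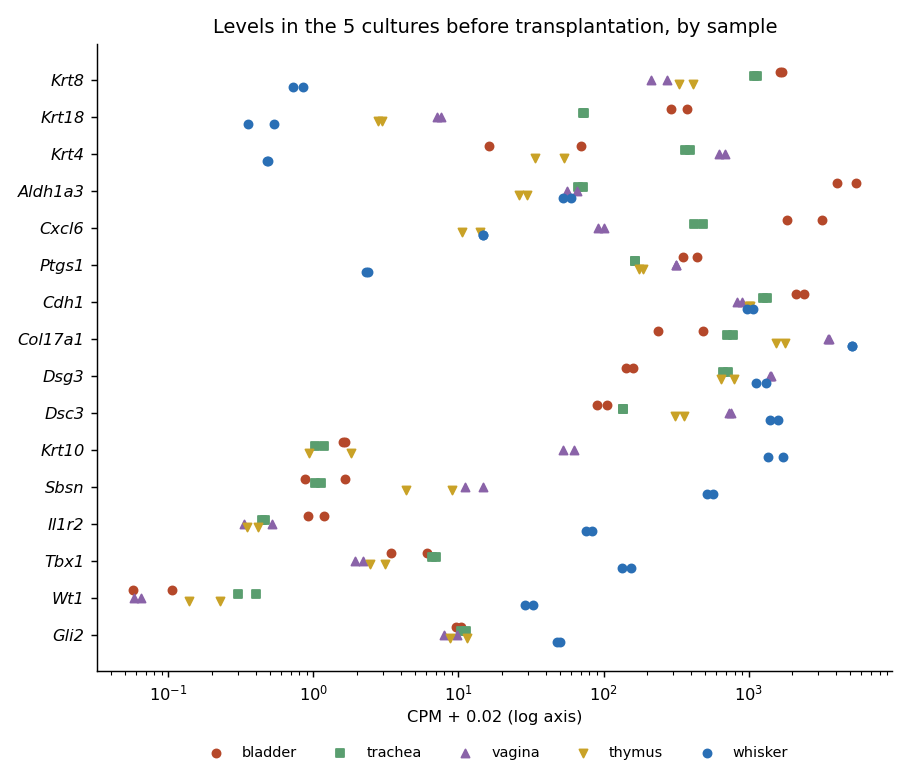
Levels of 16 genes in the 5 cultures before transplantation, as CPM + 0.02 on a log axis, with 2 points per tissue, 1 for each sample. Bladder is red, trachea green, vagina purple, thymus yellow and whisker blue. Aldh1a3 and Cxcl6 stand highest in bladder cells, Krt8 and Ptgs1 lowest in whisker cells, and Wt1, Tbx1 and Gli2 highest in whisker cells.

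The bladder samples were less alike than the whisker samples, and their largest differences are given as a description. Among genes with at least 20 CPM in the higher sample, Clca4l, Hsd11b1, Edn1, Rgs2 and Nrcam were highest in bladder sample 1 relative to sample 2. Rgs2, a regulator of G protein signalling, was at 141 and 55.6 CPM, Hsd11b1, which activates glucocorticoids, at 40.4 and 14.9 CPM and the peptide endothelin 1 (Edn1) at 94.2 and 35.7 CPM in samples 1 and 2. Krt4, Egr1, Elmsan1, Dusp6 and Cenpf were highest in sample 2 relative to sample 1. Cenpf, a kinetochore protein, was at 33.5 and 73.8 CPM and Elmsan1 at 59.0 and 157 CPM. Against whisker cells, Rgs2 and Hsd11b1 were called with either bladder sample left out, whereas Edn1 was called with a log2 fold change of 1.61 ± 0.31 and fell short of 2-fold, at 0.90, without bladder sample 1. Cenpf was called at -1.06 ± 0.26, but not with edgeR (-0.94), and was -0.48 without bladder sample 1 (adjusted p = 0.0568).

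**Figure D5:**
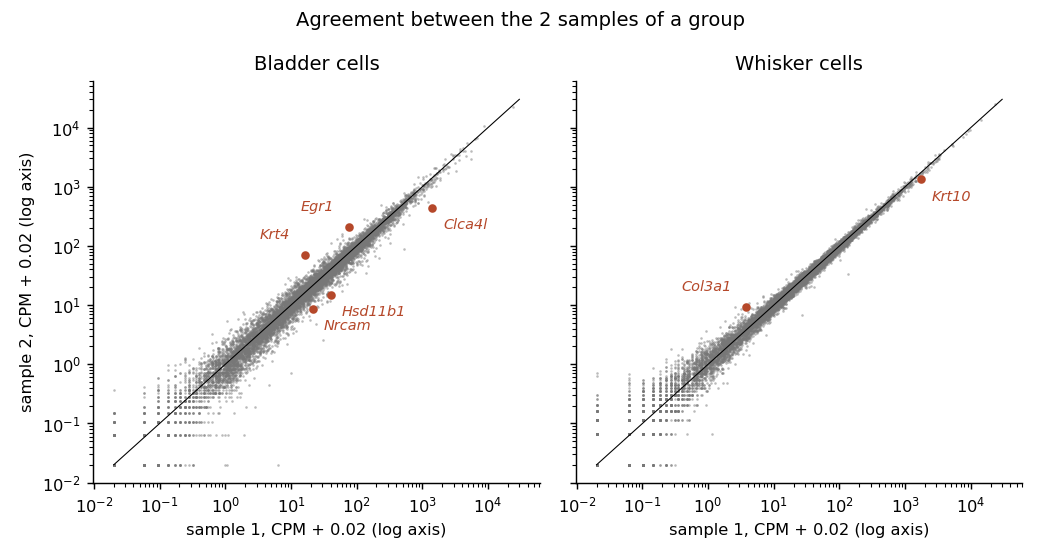
Levels of all 13302 genes in sample 2 against sample 1 of the bladder cells (left) and the whisker cells (right), as CPM + 0.02 on log axes, with the line of equal levels. The bladder panel is wider. Among genes with a mean of 1 CPM or more in the tissue, 355 were at least 2-fold apart in bladder cells and 64 in whisker cells. Named genes are marked in red.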

How the data were processed

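RNA-seq libraries (TruSeq Stranded mRNA) were processed with cutadapt 1.8, STAR 2.5.2b and HTSeq 0.6.1 on Rnor_6.0, per the submitters' processing notes. The deposited files hold the authors' raw read counts per Ensembl gene. Whether counting used strand is not given in the sources used here. Rows naming no gene (no_feature 15.2% to 19.5% of the assigned and no_feature reads in the 4 samples) were left out.

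CPM are scaled by TMM. Genes reaching 1 CPM in any of the 20 samples were fitted with limma voom (limma 3.58.1, edgeR 4.0.16, R 4.3.3) in 1 model of 10 group means, and called at a Benjamini-Hochberg adjusted p under 0.05 and 2-fold. An exact permutation test of 2 against 2 samples cannot go below 0.33. Ratios to 1 to 3 counts have exact 95% intervals, and ratios to 0 counts are bounds at 3 counts per library. Scripts were tested on simulated data.

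The members and gene lists were chosen with earlier results of these data known. Named genes were the 10 largest changes in each direction (20 CPM or more in the higher tissue), the 5 most abundant called genes, the 5 highest with under 3 counts in the other tissue, up to 4 called members per list and direction (5 CPM or more) together with genes named in the study, and the 5 most uneven genes in each direction between the bladder samples. A further 47 list members and the unnamed identifiers were chosen after their values were seen. Some results are not reported here.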

Additional observations from a re-analysis of the deposited data

How the results depend on the processing

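Between bladder and whisker cells 3964 to 5596 genes were called under all alternatives other than the fold threshold, against 4250, with 4245 for edgeR (4195 of them shared), 4153 for DESeq2 (4095 shared), 4072 for a stricter filter and 3975 with sample quality weights. The 5596 were out of 20169 genes tested without a filter, which tests more genes. Leaving out 1 library gave 4118 to 4288. A log2 fold change of at least 2 left 2192 genes, 1457 higher and 735 lower in bladder cells, and 1218 and 1344 for bladder and whisker cells against the other 3 cultures. Bladder and whisker samples with the same replicate number did not deviate together (correlation -0.123). With so few samples per group this cannot show whether samples share a batch, which was not tested. The replicate block gave 4260 calls in all 20 samples and 4136 in the 4 samples. The crossed pairing, chosen after seeing the data, gave 4134. Of 216 named genes 192 had the same call under every alternative other than the fold threshold. Gene list counts stayed within 1.5 times in all 28 lists, except under the fold threshold, where 11 moved.

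Directions turned for genes that were not called. Edar, at -0.0025, was 0.072 with edgeR, 0.084 with DESeq2, 0.014 with DESeq2 size factors, 0.00050 with a filter on the 4 samples, 0.0081 with sample weights, 0.018 and 0.023 with the replicate block in 20 and 4 samples and 0.015 with the crossed block. Over the libraries left out Edar ranged from -0.49 to 0.43, Elmsan1 from -0.38 to 1.03, Dusp6 from -0.98 to 0.34, Eif2s3y from -0.36 to 0.052 and Erbb3 from -0.32 to 0.59 on the log2 scale. The causes were not tested.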
